A study of Mus musculus with 16 samples.

Results

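The transcriptome of the kidney cortex of sedentary mice was described from 4 RNA-sequencing libraries, the complete sedentary group of a 16-library study of treadmill exercise. They were chosen as the count columns whose names match the samples titled as sedentary. The animals were male wild-type C57BL/6J mice, an inbred laboratory strain, that were not run on the treadmill, and pieces of cortex were flash frozen when they were killed. Their labels give no age, no engineered allele and no agent. The other 12 libraries, 4 each after 24 h, 1 week or 2 weeks of runs of 40 minutes at 70% of capacity, were not used. The labels number the 4 libraries but do not state that each is a separate animal, so the spread given here may in part be technical.

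The kidney cortex holds the glomeruli, where blood is filtered across podocytes and a fenestrated endothelium, and most of the tubule length that follows. The proximal tubule takes back most of the filtered salt, glucose, phosphate, amino acids and water. The thick ascending limb dilutes the fluid, the distal convoluted and connecting tubules set calcium and salt excretion, and principal and intercalated cells of the collecting duct handle sodium, water, acid and base. Each step uses 1 or a few members of a carrier or channel family.

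The libraries held 45854329 to 56957702 counts, and library 1 was the deepest. A count of 3, the smallest taken as a floor, equals 0.0527 to 0.0654 counts in each 1000000 counts of a library (CPM). A library detected 21030 to 21735 genes, and 25122 genes were counted in any of them. At 1 CPM or more in all 4 libraries were 12580 genes. Mean levels reached 10 CPM for 8605 genes, 100 CPM for 1758, 1000 CPM for 105 and 10000 CPM for 4. Counts of a pair of libraries differed by more than sampling noise in every pair, with a chi-square per degree of freedom of 7.88 for libraries 1 and 2 and of 19.7 to 38.8 for the other pairs. Values after ± are SDs over the 4 libraries. Levels of different genes are compared as CPM per kb of merged exons, and ranks per kb are among 21927 protein-coding genes, of which 16762 had a count. No group was compared with another, so no p-value is given, and the floor covers counting error only.

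A small number of genes supplied much of the RNA. The most abundant gene of each library held 4.03 ± 0.18% of its counts, the top 10 held 13.4 ± 0.36%, the top 100 held 31.6 ± 0.45%, and 423 ± 10.5 genes were enough for 50% of the counts. Kap, the kidney androgen-regulated protein made in the proximal tubule of male mice, led in all 4 libraries with 38033, 42167, 39895 and 41287 CPM. Gpx3, the secreted glutathione peroxidase of blood plasma that proximal cells make, came next with 32631, 32426, 29071 and 28663 CPM. The libraries lay close together in these genes, with a mean of 40345 ± 1803 CPM for Kap and 30698 ± 2122 CPM for Gpx3. Per kb the lead of Kap was wider, at 57066 ± 2550.4 against 16932 ± 1171 CPM per kb. Kap lies on chromosome 6, bases 133849851 to 133853762 on the minus strand, and Gpx3 on chromosome 11, bases 54902453 to 54910377 on the plus strand (GRCm38).

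Next in rank were the mitochondrially encoded mt-Cytb and mt-Co1, at means of 11806 and 10895 CPM, which are described further on. Many of the nuclear genes below them belong to proximal metabolism and transport. Slc34a1, the sodium-phosphate cotransporter NaPi-IIa of the brush border, was at 7654, 7562, 6008 and 6482 CPM, with both higher values in libraries 1 and 2. Slc27a2, which imports and activates long-chain fatty acids, was at 5655, 5664, 5627 and 6228 CPM, and library 4 stood above the other 3. Cyp4b1, a cytochrome P450 that is higher in male kidney, averaged 5518 ± 134 CPM, and Acsm2, a medium-chain acyl-CoA synthetase, 5269.8 ± 125 CPM. Napsa, an aspartic protease, averaged 4595 ± 299 CPM, and Acy3, an aminoacylase, 3907 ± 152 CPM. Miox, the myo-inositol oxygenase of proximal cells, averaged 3158 ± 359 CPM and ranked 14 per kb. Ass1, the argininosuccinate synthase of renal arginine production, averaged 3336 ± 304 CPM, although 38.6% of its 50-base stretches also occur in transcripts of other genes. Both ferritin chains were near the top, Fth1 at 7677 ± 430.1 CPM and Ftl1 at 3099 ± 278 CPM, the latter with 50.9% of its stretches shared with other genes. The sodium pump gamma subunit Fxyd2 averaged 3743 ± 223 CPM. Umod, the most abundant urinary protein and a product of the thick ascending limb, closed the 30 highest genes with a symbol, at 2791, 2480.3, 2904 and 2331 CPM.

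**Figure D1:**
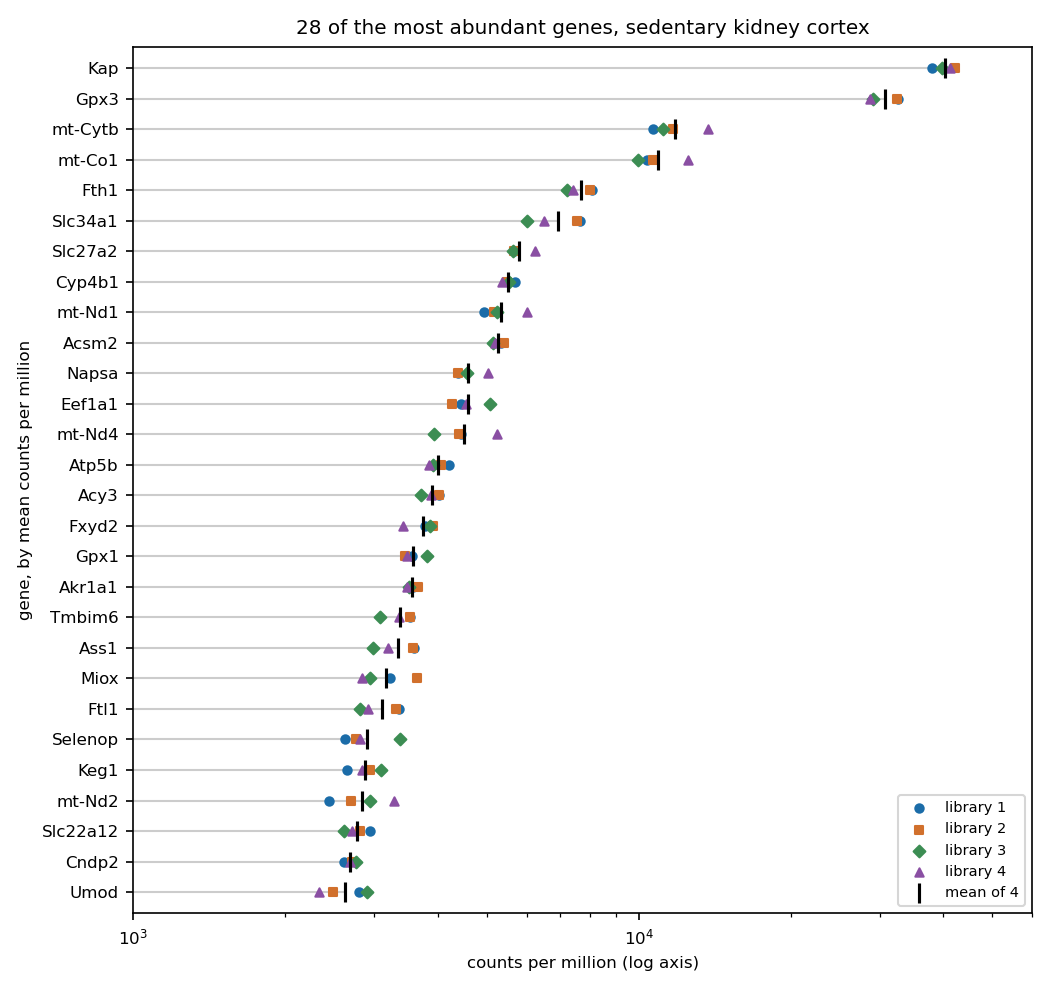
CPM (log axis) of 28 of the 30 most abundant genes with a symbol, 1 row per gene, with a coloured point for each of the 4 sedentary libraries and a black bar at their mean. Kap and Gpx3 stand apart from the rest at means of 40345 ± 1803 and 30698 ± 2122 CPM, and within a gene the libraries lie close together beside the distance between genes.

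Among the 99 of the 100 most abundant genes that have a symbol, 8 were solute carriers (Slc34a1, Slc27a2, Slc22a12, Slc22a6, Slc25a39, Slc25a5, Slc13a3 and Slc7a13), which together held 2.13% of all counts. Another 3 were cytochromes P450 (Cyp4b1, Cyp2e1 and Cyp2j5), with 0.93% of counts. The nuclear genes of ATP synthase and the respiratory chain had 3 members there, Atp5b, Atp5a1 and Cox4i1. No ribosomal protein gene was among them. The 83 ribosomal protein genes, 81 of which had a count, summed to 2.48% of counts, and the highest, Rplp0, averaged 992 ± 68.1 CPM.

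The upstream sequences of 4 of the highest tubular genes and of Umod are shown because their levels carry the profile above. Each line gives the 210 bases before the RefSeq start site on the gene's own strand, 5′ to 3′, from the RefSeq promoter table (GRCm38.p6). Capitals mark the letters TATAAA (the TATA box), GGGCGG (the GC box that Sp1 binds), CCAAT and GTTAAT (a half-site of a palindrome found before many tubular genes), searched on both strands.
Kap (chr6:133853668-133853877, minus strand): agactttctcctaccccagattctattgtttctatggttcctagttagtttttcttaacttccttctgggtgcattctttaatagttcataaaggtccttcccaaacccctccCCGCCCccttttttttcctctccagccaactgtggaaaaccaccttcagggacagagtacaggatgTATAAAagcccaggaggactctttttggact
Gpx3 (chr11:54902644-54902853, plus strand): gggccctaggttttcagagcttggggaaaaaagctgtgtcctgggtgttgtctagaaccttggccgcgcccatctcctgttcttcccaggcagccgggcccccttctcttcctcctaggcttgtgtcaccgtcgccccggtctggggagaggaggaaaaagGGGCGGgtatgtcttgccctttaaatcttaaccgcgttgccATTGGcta
Slc34a1 (chr13:55399438-55399647, plus strand): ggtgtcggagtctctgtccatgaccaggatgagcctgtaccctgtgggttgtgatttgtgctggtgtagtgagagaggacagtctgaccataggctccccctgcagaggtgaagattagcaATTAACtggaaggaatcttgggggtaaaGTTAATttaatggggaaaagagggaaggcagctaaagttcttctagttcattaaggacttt
Miox (chr15:89334263-89334472, plus strand): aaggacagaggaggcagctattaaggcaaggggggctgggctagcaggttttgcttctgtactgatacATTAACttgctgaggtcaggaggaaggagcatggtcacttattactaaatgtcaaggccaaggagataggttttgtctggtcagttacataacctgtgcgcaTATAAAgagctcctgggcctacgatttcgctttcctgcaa
Umod (chr7:119479263-119479472, minus strand): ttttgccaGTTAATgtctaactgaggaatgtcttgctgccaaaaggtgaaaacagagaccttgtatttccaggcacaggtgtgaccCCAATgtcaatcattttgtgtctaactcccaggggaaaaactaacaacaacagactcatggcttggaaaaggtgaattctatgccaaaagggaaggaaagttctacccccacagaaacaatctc
The capitals show a TATAAA that starts 31 bases before the start site of Kap and 40 bases before that of Miox. Slc34a1 holds GTTAAT 61 bases upstream and its reverse complement 89 bases upstream, and Miox the reverse complement 142 bases upstream. Umod shows GTTAAT 202 bases upstream and a CCAAT nearer to the start, Gpx3 a GC box 49 bases upstream, and Kap the reverse complement of a GC box 97 bases upstream.

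Over the whole 300-base windows of the table, 250 bases before to 50 after the start, TATAAA was found in 13.6% of all 32851 promoters, GGGCGG in 35.7%, CCAAT in 37.4% and GTTAAT in 7.10%. Protein-coding genes matched by symbol to the count table gave 20120 promoters of 16500 genes, and some genes have several. In this set TATAAA was in 12.2% of promoters, GTTAAT in 6.16%, GGGCGG in 47.8% and CCAAT in 37.8%. Of the 200 nuclear genes that were highest per kb, 152 matched, with 192 promoters. TATAAA was in 16.1% of these, GTTAAT in 10.4%, GGGCGG in 45.3% and CCAAT in 35.9%. By level, TATAAA was in 28.1% of promoters of genes with no count, in 6.39% at 10 to 100 CPM and in 18.9% of the 95 promoters of genes at 1000 CPM or more. In the same order GGGCGG was in 11.8%, 65.8% and 51.6%, and the median GC content of these windows was 44.7%, 61.3% and 58.7%. GTTAAT was in 7 of 23 promoters of the 17 matched genes of the proximal lists, 30.4%, and in 4 of 43 promoters of the 36 matched genes of the lists from the thick ascending limb to the collecting duct, 9.30%. Promoters of 1 gene overlap, so these are descriptions of letters in windows and not counts of independent genes.

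Mitochondrially encoded genes took 3.91 ± 0.41% of counts, with 4.52% in library 4 and 3.61 to 3.77% in the others. The respiratory chain genes mt-Cytb and mt-Co1 were at 10675, 11678, 11148 and 13723 CPM and at 10389, 10663, 9984 and 12544 CPM, with library 4 highest for both. By contrast mt-Atp6, mt-Atp8 and mt-Nd4l, which every respiring cell uses, were listed at 0 in all 4 libraries, and mt-Co3, mt-Co2 and mt-Nd3 had at most 0.0846 CPM in any. Of the 13 mitochondrial protein genes, 5 share 98.0 to 100% of their 50-base stretches with another annotated gene, and all 5 are in this low group. Of the other 8, mt-Atp8 is the only one in it; it shares none, but overlaps mt-Atp6 over 21.1% of its length. Partial sharing went with high counts, since mt-Co1 shares 51.1% and mt-Nd4 62.2%. The sources used here do not say how reads that match several places were counted, and its part in these values was not tested. Also low was mt-Nd6, the only protein gene of the light strand, at 4.69, 2.7, 8.71 and 5.18 CPM.

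**Figure D2:**
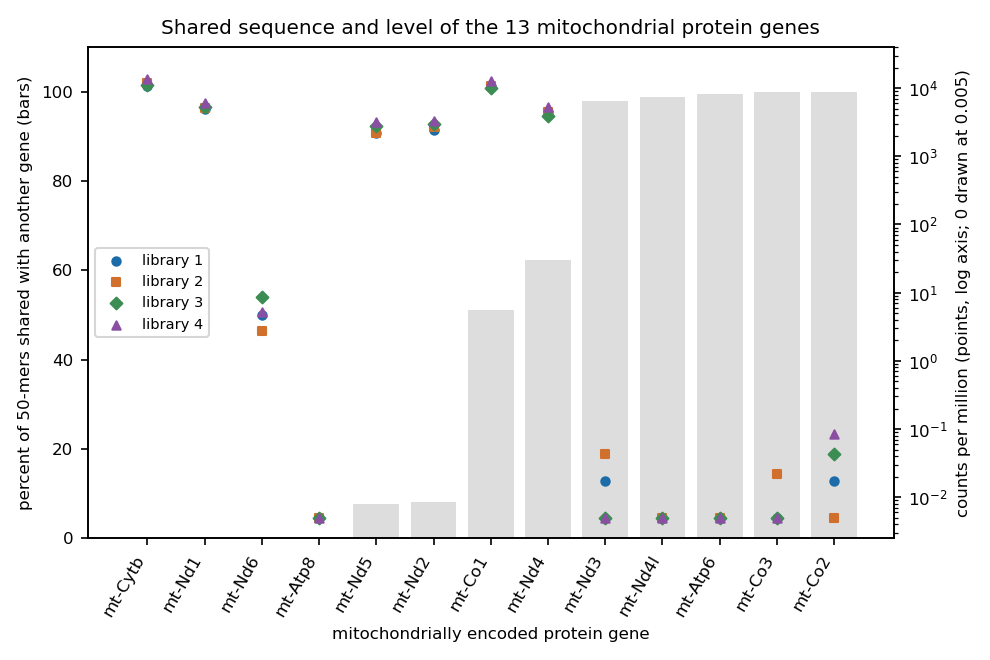
The 13 mitochondrially encoded protein genes ordered by the percentage of their distinct 50-base stretches found in transcripts of another gene (grey bars, left axis), with CPM in the 4 libraries as points (right axis, log scale, 0 drawn at 0.005). All 5 genes with bars near 100% lie at or near 0 counts, whereas mt-Cytb, mt-Co1, mt-Nd1, mt-Nd4, mt-Nd2 and mt-Nd5 lie above 2000 CPM in every library.

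The identifier ENSMUSG00000119584, which the GENCODE M21 annotation does not hold, was left out of the names above. It had rank 8 by CPM, with 3601, 4338, 8108 and 7221 CPM. Libraries 3 and 4 lay far above libraries 1 and 2, and its SD was 0.57 on the log2 scale, the largest of any feature over 1000 CPM. Lars2, the mitochondrial leucyl-tRNA synthetase, looked up after the values were seen, was likewise higher in libraries 3 and 4, at 391, 383, 685.30 and 494 CPM. In all, 52133 of 55414 identifiers are named in M21, and they hold 99.4% of counts.

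Proximal tubule genes had the highest levels of the nephron lists, with a list median of 284 CPM per kb for the genes of all its segments against 63.9 for the thick ascending limb. The 10 genes used along the whole proximal tubule summed to 19168, 19360, 16964 and 18372 CPM, all 10 were above 1 CPM in each library, and their median rank per kb was 223.5. Miox at 1913 ± 217, Slc34a1 at 1481 ± 173 and Fbp1, the fructose bisphosphatase of gluconeogenesis, at 949 ± 19.5 CPM per kb led the list. The water channel Aqp1 was at 531 ± 65.6 and the gluconeogenic enzyme Pck1 at 391.99 ± 35.9 CPM per kb. The transcription factor Hnf4a, a regulator of proximal identity, was at 176 ± 6.57 CPM per kb, at rank 320. The scavenger receptors of protein uptake, Lrp2 and Cubn, were at 107 ± 11.8 and 28.4 ± 3.96 CPM per kb.

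Lists of the proximal segments differed in which libraries held more. Genes of the convoluted part (Slc22a6, Slc5a2, Slc22a8, Slc6a19, Slc7a7 and Slc5a12) summed to 3474, 3414, 2839 and 3053 CPM. Genes of the straight part (Slc7a13, Cyp7b1, Atp11a, Slc22a13 and Slc22a19) summed to 2366, 2436, 2907 and 2876 CPM. Libraries 1 and 2 were thus higher for the convoluted list and libraries 3 and 4 for the straight list, and the ratio of the sums was 1.47, 1.40, 0.977 and 1.06. In bulk tissue a smaller number of cells of a type and less RNA per cell cannot be told apart. Slc22a6, the organic anion transporter OAT1, led the convoluted list at 354 ± 31 CPM per kb, and Slc7a13, an acidic amino acid exchanger that is higher in males, led the straight list at 499 ± 63.3.

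The thick ascending limb list of 11 genes summed to 5197, 4713, 5306 and 4299 CPM. Umod made up most of it, at 951 ± 96.5 CPM per kb and rank 36. Ppp1r1a, a phosphatase inhibitor, was at 154 ± 19.1 and Cldn10, a paracellular cation channel, at 95.3 ± 6.3 CPM per kb. The salt carrier Slc12a1 (NKCC2), target of loop diuretics, was at 74.2 ± 8.85 CPM per kb and the potassium channel Kcnj1 (ROMK) at 51.8 ± 7.15. The calcium-sensing receptor Casr was the lowest of the list at 3.61 ± 0.359 CPM per kb. The markers of the macula densa, the salt-sensing plaque at the end of this segment, were all below 1 CPM. Nos1, Ptgs2 and Pappa2 together summed to 0.79, 0.763, 1.12 and 0.888 CPM.

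The distal convoluted tubule was represented by Slc12a3 (NCC), the thiazide-sensitive cotransporter, at 494, 384, 417 and 322 CPM, and by the calcium buffer Pvalb at 23.8 ± 3.69 CPM per kb. Trpm6, a magnesium channel, was at 1.43 ± 0.308 CPM per kb. In the connecting tubule list Klk1, tissue kallikrein, stood at 1928 ± 393 and S100g, the vitamin D-dependent calcium buffer calbindin-D9k, at 1241 ± 221 CPM per kb. Their per-kb ranks were 13 and 27. Klk1 was at 2498, 2205, 2109.5 and 1493 CPM, with library 4 lowest, and 24% of its 50-base stretches also occur in other genes, with Klk1b5 sharing the most. The larger calbindin, Calb1, was at 56.8 ± 12.6 and the calcium channel Trpv5 at 2.63 ± 0.56 CPM per kb.

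Principal cell genes were led by the vasopressin-regulated water channel Aqp2, at 201, 181, 196 and 149.6 CPM. Hsd11b2, which protects the mineralocorticoid receptor from glucocorticoids, was at 83.2 ± 8.31 and the basolateral water channel Aqp3 at 58.9 ± 6.54 CPM per kb. Intercalated cell genes were led by Car2, carbonic anhydrase, at 145 ± 9.3 CPM per kb, though proximal cells express it too. The factor Foxi1, which specifies intercalated cells, was at 8.12 ± 0.639 CPM per kb. Type A cells were marked by Aqp6 at 18.9 ± 2.6 and Slc4a1 at 7.22 ± 0.563 CPM per kb. The type B exchangers pendrin (Slc26a4) and Slc4a9 were at 17.3 ± 2.63 and 3.68 ± 0.674 CPM per kb.

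Library 4 had the lowest sum in 6 of the 7 lists from the thick ascending limb to the collecting duct, the exception being type A intercalated cells, where library 3 was lowest. Library 1 had the highest sum in 5 of these 7. With the macula densa list, which was lowest in library 2, library 4 was lowest in 6 of 8. Over all 39 lists library 4 was lowest in 10 and library 1 highest in 15, and of 4 lists of glomerulus and vessel library 1 was highest in 3. The connecting tubule list summed to 3630.3, 3243, 3039 and 2208 CPM in libraries 1 to 4, and the distal convoluted list to 623, 491, 526 and 415 CPM.

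**Figure D3:**
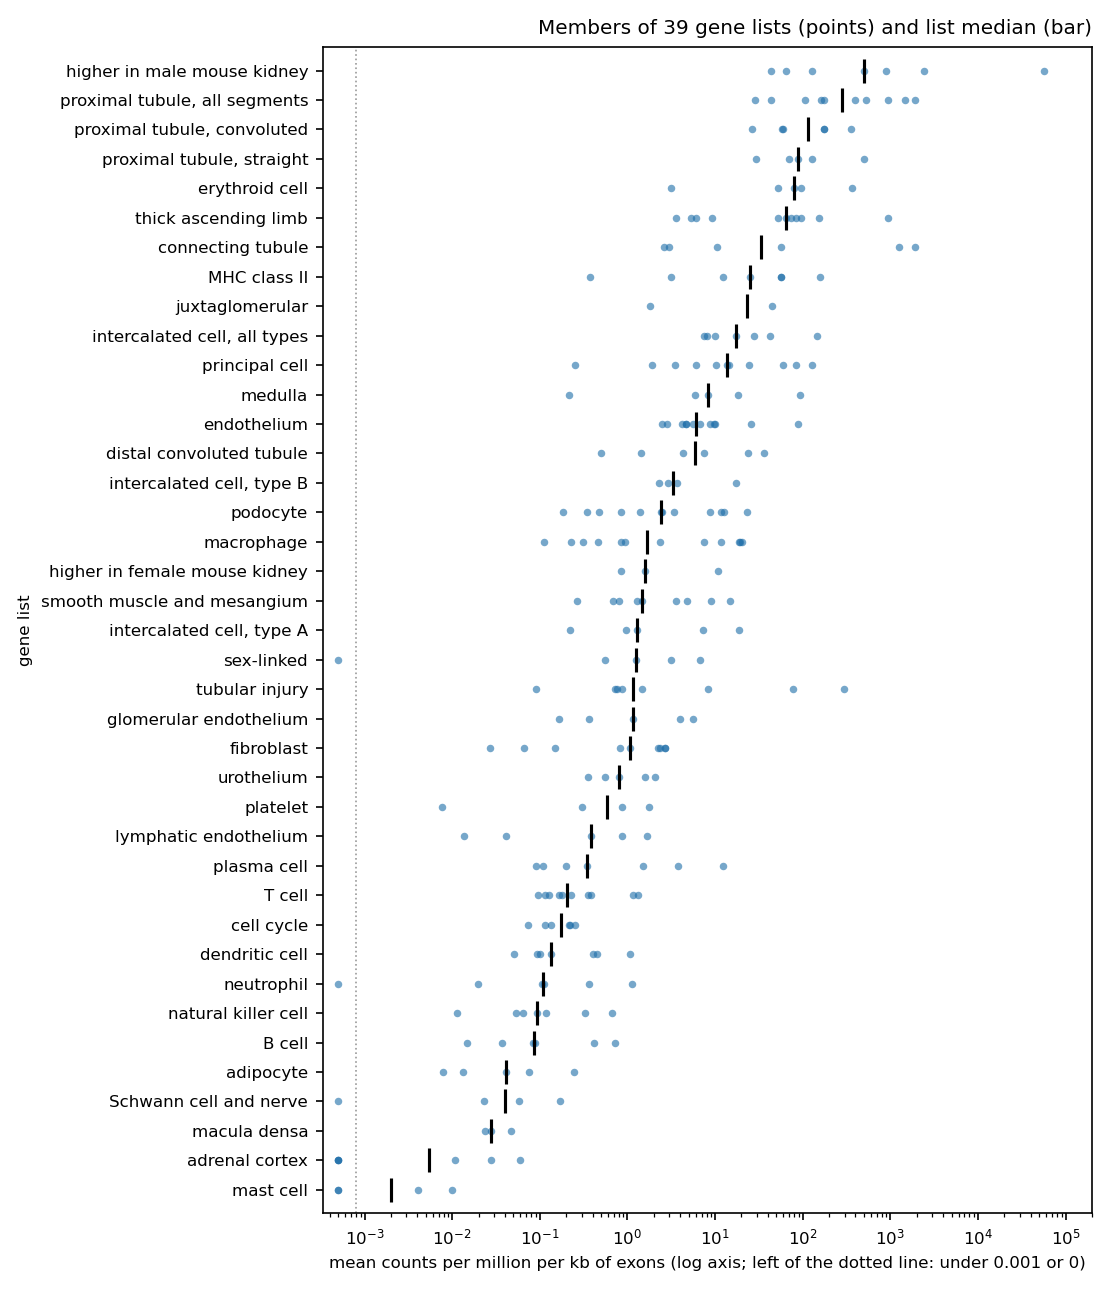
Mean CPM per kb of exons (log axis) of each member (points) of 39 gene lists, ordered by the list median (black bar), with genes at 0 or under 0.001 drawn left of the dotted line. Lists of the proximal tubule lie at the top with the list of genes that are higher in male kidney, lists of glomerulus and vessel lie in the middle, and mast cell, adrenal cortex and macula densa genes lie at the bottom.

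Glomerular genes were low beside those of the proximal tubule, with a list median of 2.43 CPM per kb for podocytes. All 12 podocyte genes reached 1 CPM in each library, and they summed to 397, 341, 328 and 338 CPM, with library 1 highest. Podxl, a sialomucin that endothelium also makes, led at 23.1 ± 2.34 CPM per kb. Cdkn1c, a cell cycle inhibitor of mature podocytes, was at 11.7 ± 1.36 CPM per kb, with 30.6% of its exons under a gene on the other strand. Nphs1 (nephrin) and the factor Wt1 were lower, at 2.39 ± 0.374 and 0.848 ± 0.115 CPM per kb. Of the glomerular endothelial genes, Plat was at 5.53 ± 0.606, Ehd3 at 3.99 ± 0.219 and Nostrin at 1.17 ± 0.208 CPM per kb.

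All 12 endothelial genes were above 1 CPM, and they summed to 635, 530.2, 591 and 593 CPM. Plvap, of the diaphragms of fenestrae, led at 87.6 ± 7.21 CPM per kb, followed by Eng at 25.8 ± 1.79 and Emcn at 9.98 ± 0.996. The smooth muscle and mesangial list summed to 123.64 ± 11.7 CPM. Its first member, Tagln, at 15 ± 0.999 CPM per kb, has 67.9% of its exons under genes on the other strand. Acta2 was at 28.8, 16.6, 18 and 15.8 CPM, with library 1 above the rest, and Pdgfrb, the pericyte receptor, at 4.84 ± 0.549 CPM per kb. Ren1, renin of the juxtaglomerular cells, was at 75.4, 98.4, 60.5 and 63.4 CPM, highest in library 2, and ranked 1183 per kb. Fibroblast genes summed to 101 ± 13.7 CPM, led by Col1a2 and Col1a1 at 2.71 ± 0.342 and 2.71 ± 0.307 CPM per kb. The 5 lymphatic genes were low, with sums of 12.9, 11.2, 12.5 and 12.2 CPM, and 2 of them reached 1 CPM in every library. Ccl21a, at 1.67 ± 0.592 CPM per kb, shares 71.6% of its stretches with near-identical copies, and Lyve1 was at 0.0136 ± 0.00961.

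Immune genes were led by those of antigen presentation and of macrophages. The 7 MHC class II genes summed to 768, 567, 662 and 614 CPM, with Cd74, the invariant chain, at 158 ± 26.1 CPM per kb. The macrophage list of 12 summed to 169, 140.5, 176 and 163 CPM. The complement genes C1qa and C1qb were at 20.5 ± 2.74 and 19.3 ± 3.45, and Lyz2 at 18.5 ± 6.17 CPM per kb. Csf1r, the receptor that keeps macrophages alive, was at 11.5 ± 1.11 CPM per kb, and Adgre1, which encodes F4/80, was lower at 0.949 ± 0.145 CPM per kb, or 3.41, 2.75, 3.54 and 2.6 CPM.

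The T, B and natural killer cell lists each summed to less than 10 CPM, and the plasma cell list was higher. The 10 T cell genes summed to 7.06, 6.72, 8.15 and 6.7 CPM. Cd3e was at 0.421, 0.458, 0.493 and 0.508 CPM, and the constant chains Trac and Trbc2 led at 1.31 ± 0.271 and 1.14 ± 0.339 CPM per kb, Trbc2 with 44% of its stretches shared with Trbc1. B cell genes summed to 2.48, 2.27, 3.56 and 2.45 CPM, and natural killer cell genes to 1.76, 1.35, 1.72 and 1.92 CPM. Plasma cell genes summed to 19.9, 12.3, 25.6 and 18.3 CPM, led by Igkc at 12.2 ± 4.3 CPM per kb. The dendritic cell list summed to 8.94 ± 1.26 CPM, led by Cd209a at 1.07 ± 0.217 CPM per kb, and the platelet list to 10.5 ± 0.582 CPM, led by Itga2b at 1.74 ± 0.0989. Neutrophil genes reached 1.35 ± 0.555 CPM in all, and Ly6g had no count in any library. Of the 4 mast cell genes Mcpt4 and Tpsb2 had no count, and the list summed to at most 0.0436 CPM.

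Little RNA came from genes of adrenal cortex, adipocytes and nerve. The adrenal steroid enzymes Cyp11b1, Cyp11b2 and Cyp21a1 had no count in any library, adipocyte genes summed to 0.666 ± 0.124 CPM, and Th, of sympathetic nerves, had no count. Each such 0 allows up to 0.0527 to 0.0654 CPM, from counting error only. Urothelial genes of the renal pelvis summed to 6.37, 4.25, 7.12 and 12.2 CPM, and red cell genes to 396, 582, 503 and 334 CPM, both with wide spread over libraries (a CV of 45.1% and 24.3%). The red cell genes highest per kb share 53.2 to 89.3% of their 50-base stretches with other genes, and how such reads were counted is not known. The 5 genes of the medulla list summed to 275, 297, 273 and 291 CPM. Of these 5 genes, 4 were at 1 CPM or more in every library. Cryab was at 92.7 ± 10.2 CPM per kb, while the urea carrier Slc14a2, of the inner medullary duct, was at 8.34 ± 0.787. Cell cycle genes summed to 5.49 ± 0.698 CPM over 6 members. Injury markers were low, with Havcr1 (KIM-1) at 1.84, 3.03, 3.22 and 5.63 CPM and Lcn2 at 2.11, 2.36, 1.44 and 2.05 CPM. Havcr1 was highest in library 4, and Lcn2 was lowest in library 3. Spp1 and Clu, which healthy tubules also make, were at 296 ± 12.4 and 77.5 ± 17.1 CPM per kb.

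The sex of the animals was visible in the counts. Xist had 1 count over the 4 libraries, whereas Ddx3y was at 14.3, 15.2, 22.3 and 14 CPM. The 7 genes that are higher in male mouse kidney summed to 47074, 51352, 49452 and 50215 CPM, most of it Kap. The 3 that are higher in female kidney (Cyp4a14, Slc7a12 and Prlr) summed to 35.9, 34.6, 51.2 and 52.2 CPM.

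In carrier and pump families a leading member was usually clear. Of 46 families with 340 members, 237 members were at 1 CPM or more in all libraries, and 20 had no count in any. The same member was above the next in all 4 libraries in 45 families, the exception being the sodium-calcium exchangers. The leader held more than 50% of its family's summed CPM per kb in 34 families and more than 90% in 11, and its median share was 69.5%. These shares depend on family size, which ran from 2 to 21 members. In a family of 2 members a leader's share above 50% is fixed by definition, and such families are counted among the 34. Folds between the leader and the next member were above 2 in 32 of 45 families with enough counts for a ratio, and above 10 in 10. Of those with no count, 19 were the neuronal vesicular glutamate carrier Slc17a6 and the muscle chloride channel Clcn1, and Slc5a4a, Slc5a7, Slc4a10, Slc26a3, Slc26a5, Slco5a1, Slco6c1, Slc6a11, Slc7a14, Slc38a5, Slc38a8, Slc15a5, Slc28a3, Rhag, Mip, Kcnj6 and Atp2b3.

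**Figure D4:**
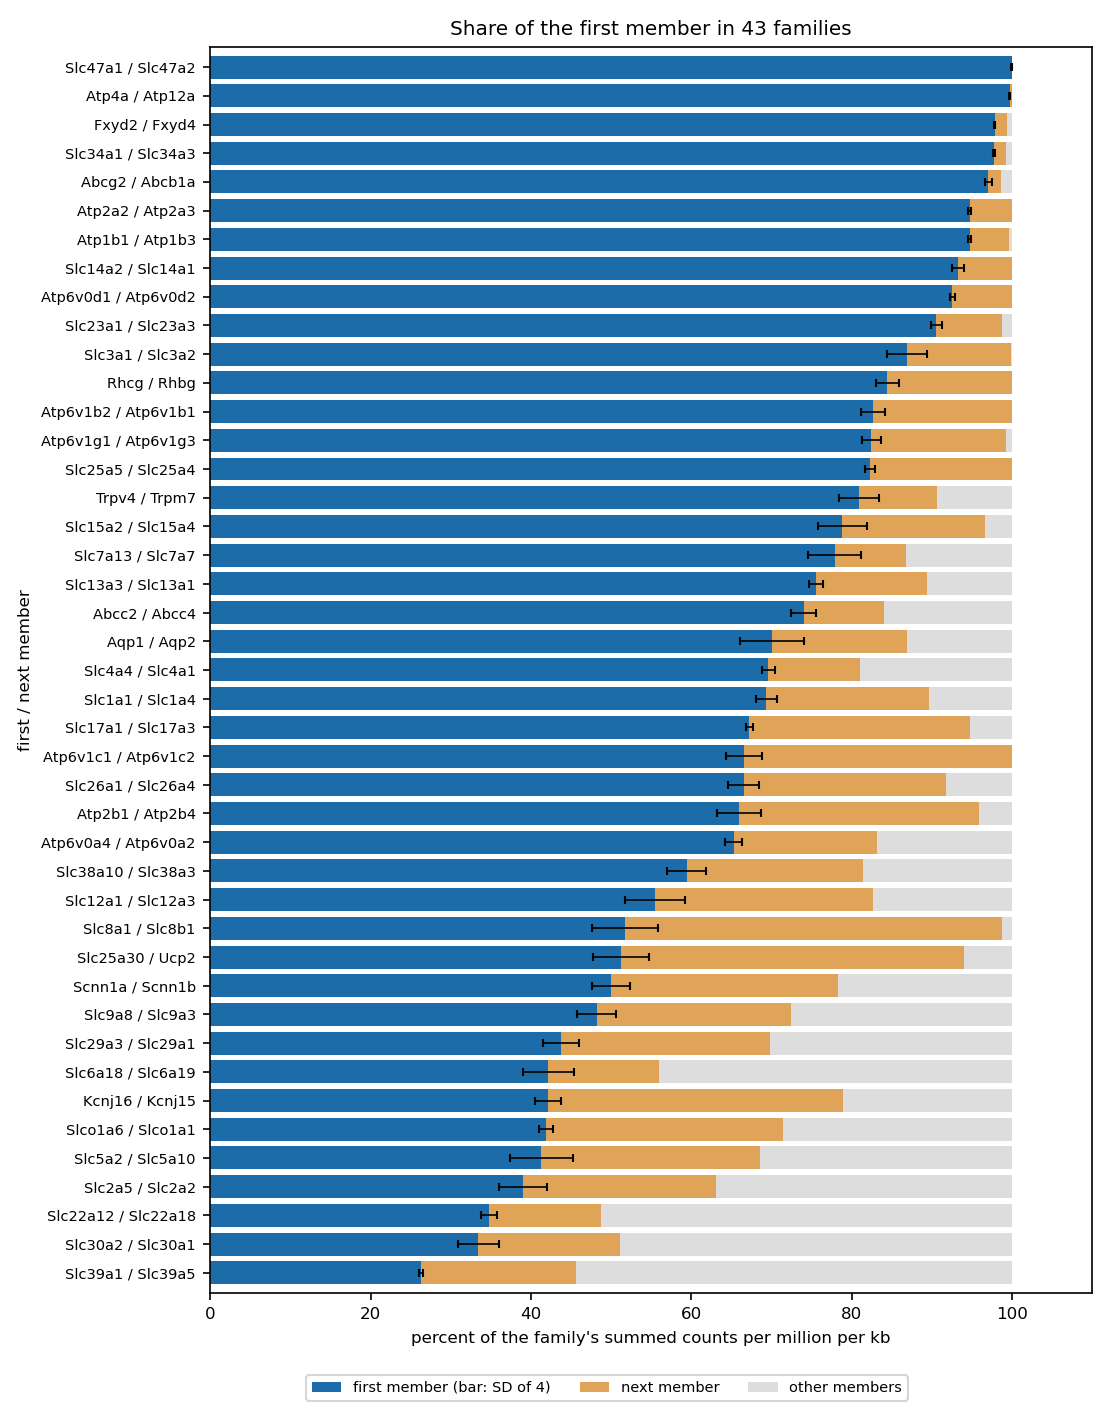
Share of each family's summed CPM per kb held by the first member (blue, with the SD over 4 libraries), the next member (orange) and all others (grey) in 43 of the 46 families of carriers, channels and pumps. Bars at the top, such as Slc47a1, Atp4a, Fxyd2 and Slc34a1, are almost wholly blue, and bars at the bottom, such as Slc39a1, are split among several members.

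Of the phosphate carriers, Slc34a1 held 97.8 ± 0.13% of the summed level of the Slc34 and Slc20 families. Slc34a3 (NaPi-IIc) was at 21.2 ± 3.52 CPM per kb, so that Slc34a1 was 70.2-fold above it. The sodium-sugar carrier family was more evenly spread among its members. Slc5a2 (SGLT2), which takes up most filtered glucose, was at 177 ± 26.8 CPM per kb, 1.5-fold above Slc5a10, a mannose and fructose carrier. The log2 ratio was 0.58 ± 0.22 and higher in libraries 1 and 2. Slc5a1 (SGLT1), of the late proximal tubule, was only the sixth of the family at 20.3 ± 0.681 CPM per kb. Slc2a5, a fructose carrier, was 1.62-fold above Slc2a2 (GLUT2) per kb, but the order reversed without length correction, at a log2 ratio of -0.06, and Slc2a1 (GLUT1) led with median coding transcript lengths. The vitamin C carrier Slc23a1 held 90.6 ± 0.693% of its family. Slc13a3, a dicarboxylate carrier, was 5.44-fold above the sulfate carrier Slc13a1.

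Sodium and acid carriers gave closer pairs. Slc9a8 (NHE8), an exchanger of the Golgi and of brush borders, was 1.98-fold above Slc9a3 (NHE3), the brush-border sodium-hydrogen exchanger. Slc9a3 itself was at 93.8, 82.5, 84.5 and 82.4 CPM, with little spread. Slc12a1 was 2.05-fold above Slc12a3 with merged exons, at a log2 ratio of 1.04 ± 0.25, but Slc12a3 was the higher with the longest transcript (-0.05) or the median coding transcript (-0.40). The basolateral bicarbonate carrier Slc4a4 was 6.1-fold above Slc4a1. Slc26a1, a sulfate-oxalate exchanger, was 2.65-fold above pendrin, Slc26a4.

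Among organic ion carriers Slc22a12 (URAT1), the urate exchanger, led at 1224 ± 62.7 CPM per kb, 2.49-fold above Slc22a18. It held only 34.8 ± 1.02% of a family of 21, of which 18 were at 1 CPM or more. Slc22a6, Slc22a7, Slc22a2 and Slc22a8 were at 354, 246, 224 and 173 CPM per kb. Of the exons of Slc22a12, 30.1% lie under Nrxn2 on the other strand. Slc47a1 (MATE1), which exports organic cations into urine, was at 225 ± 6.83 CPM per kb, while Slc47a2 had 11, 12, 0 and 9 counts. The efflux pump Abcg2 (BCRP) was 64.8-fold above Abcb1a, which shares 17.6% of its stretches with its copy Abcb1b. Abcc2 (MRP2) was 7.44-fold above Abcc4 (MRP4). Slco1a6 led Slco1a1 by 1.44-fold, and without length correction Slco3a1 led that family.

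Among amino acid carriers Slc7a13 was 8.66-fold above Slc7a7 (y+LAT1), and the heavy chain Slc3a1 (rBAT), whose loss causes cystinuria, was 6.72-fold above Slc3a2 (4F2hc). Slc6a18, a glycine carrier, was 3.04-fold above Slc6a19 (B0AT1), the main neutral amino acid carrier. With median coding transcript lengths Slc6a6, the taurine carrier, led that family. Slc1a1, a glutamate carrier, was 3.41-fold above Slc1a4, with 31.9% of its exons under a gene on the other strand. Slc15a2 (PEPT2) was 4.4-fold above Slc15a4, and Slc38a10 2.74-fold above Slc38a3.

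Pump subunits differed in how far 1 member led. Atp1b1, a sodium pump beta subunit, was 19.1-fold above Atp1b3. Fxyd2, the gamma subunit, was 64-fold above Fxyd4, with nearly the same log2 ratio in each library (6.00 ± 0.03). Atp4a, the gastric-type proton-potassium pump, was at 10.4 ± 1.84 CPM per kb and Atp12a, the colonic form, at 0.0288 ± 0.00413. In the proton pump, subunits used in all cells and subunits used in intercalated cells could be set side by side. Atp6v1b2 was 4.77-fold above Atp6v1b1, Atp6v1g1 4.91-fold above Atp6v1g3 and Atp6v0d1 12.5-fold above Atp6v0d2. The a subunit went the other way, since Atp6v0a4, whose loss causes renal tubular acidosis in humans, was 3.64-fold above Atp6v0a2. Bulk counts do not show which cells these transcripts came from, so intercalated cells need not be the only source of Atp6v0a4. Atp6v1g1 shares 19.1% of its stretches with other genes. The reticulum pump Atp2a2 was 18-fold above Atp2a3, the plasma membrane pump Atp2b1 2.22-fold above Atp2b4, and the C subunit Atp6v1c1 1.99-fold above Atp6v1c2.

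In the channels Aqp1 was 4.15-fold above Aqp2 and held 70.1 ± 4.01% of 12 aquaporins, of which Mip, the lens aquaporin, had no count. Scnn1a, Scnn1b and Scnn1g, the subunits of the epithelial sodium channel, were at 24.1 ± 3.49, 13.7 ± 1.32 and 10.4 ± 1.09 CPM per kb, with the alpha subunit above beta in all 4 libraries. Kcnj16 was 1.15-fold above Kcnj15 with merged exons and below it without length correction (-0.48) or with median coding lengths (-0.59). Rhcg was 5.45-fold above Rhbg, of whose stretches 60.4% are shared with an overlapping gene on the same strand. Trpv4 was 8.36-fold above Trpm7 among calcium and magnesium channels. Slc8a1, of the connecting tubule, and Slc8b1, of mitochondria, did not differ beyond their spread, at 2.98 ± 0.66 and 2.7 ± 0.126 CPM per kb, and Slc8b1 was the higher with the longest transcript (-0.11).

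Other orders depended on length. Slc25a30 was 1.2-fold above Ucp2 with merged exons and below it in the other length settings. Slc17a1 was 2.44-fold above Slc17a3 and below it only without length correction (-0.23). Slc29a3 was 1.67-fold above Slc29a1 and below it with median coding lengths (-0.99). Among zinc importers Slc39a1 was 1.35-fold above Slc39a5, and Slc39a5 was above Slc39a1 with median coding lengths (-0.31), where Slc39a11 led; without length correction Slc39a8 led. Slc30a2, a zinc exporter, was 1.89-fold above Slc30a1, and without length correction Slc30a9 led. Slc25a5, an adenine nucleotide carrier, was 4.65-fold above Slc25a4, with 33.8% of its stretches shared with other genes.

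Most genes varied little among the 4 libraries. Of 8605 genes at a mean of 10 CPM or more, the median SD of log2(CPM + 0.5) was 0.10, against 0.03 from counting error alone, and the 95th percentile was 0.23. Among them Bcl6 was the only gene with an SD above 1. Bcl6, a transcriptional repressor on chromosome 16, bases 23965052 to 23988852 on the minus strand, was at 65.3, 7.41, 50.98 and 75.4 CPM. Library 2 was far below the other 3, by counts of 340 against 2376 to 3719, and the SD was 1.52. Without library 2 its SD was 0.28. Cish, an inhibitor of cytokine receptor signals, was at 10.7, 29.7, 13.5 and 12.6 CPM and so highest in the library where Bcl6 was lowest. Socs2, a relative of Cish that was looked up after the values were seen, was at 4.81, 7.7, 9.03 and 6.28 CPM and was not highest in library 2.

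The other genes named for their spread did not share 1 library that stood apart. Library 2 was apart in Cdk5rap1, an RNA-modifying enzyme of mitochondria, at 13.5, 27.8, 13.9 and 11.7 CPM, and lowest in Depp1, at 13.8, 5.74, 11.8 and 9.43 CPM. Library 4 was highest for the prolactin receptor Prlr at 10.7, 10.3, 9.12 and 21.1 CPM, and for Tet2, a DNA demethylation enzyme, at 8.5, 7.48, 11 and 16.9 CPM. The nuclear noncoding RNA Malat1, at 26.9, 24.1, 40.5 and 70.4 CPM, was also highest in library 4. Library 3 was highest for Kif20b, a kinesin, at 16.9, 16.7, 37.1 and 12.6 CPM, and for Neat1, the noncoding RNA of paraspeckles, at 59.6, 42.6, 95.9 and 72.5 CPM. Cyp24a1, which inactivates vitamin D, was lowest in library 3, at 123, 102, 50.8 and 101 CPM. In 9 of these 10 genes, Bcl6 and Cish included, the SD fell by more than 1.5 times when the library farthest from the rest was left out, the exception being Neat1. The SD cannot rise when the farthest of 4 values is left out, and these genes were chosen for their SD. The share over all genes was not computed, so nothing particular to these 10 genes follows. Of the 100 most variable genes, library 3 held the highest value in 47, library 4 in 27, library 2 in 15 and library 1 in 11. Over all 8605 genes library 3 was highest in 36.7%, library 4 in 18.3%, library 2 in 13.8% and library 1 in 31.2%. The lowest value of the 100 was in library 1 in 36 genes, in library 2 in 31, in library 3 in 18 and in library 4 in 15, against 20.1, 22.8, 31.6 and 25.6% of all genes.

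**Figure D5:**
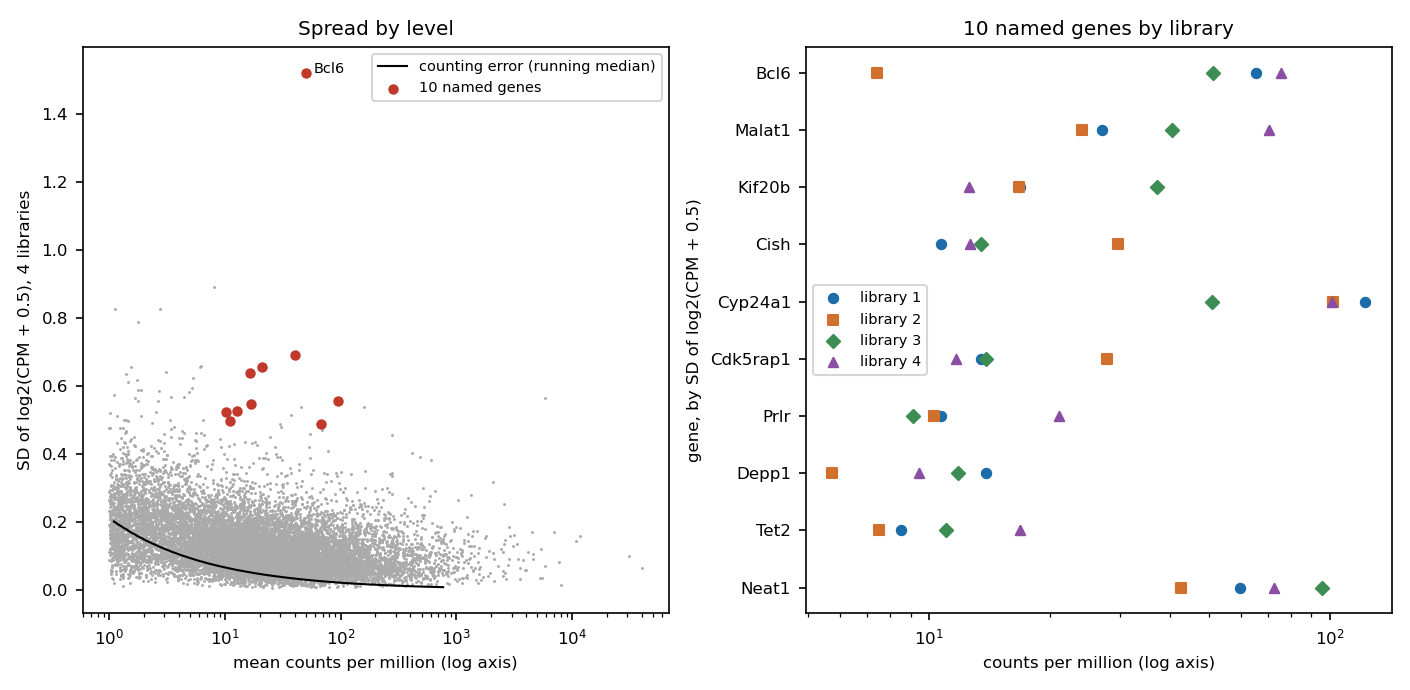
Left, SD of log2(CPM + 0.5) over the 4 libraries against mean CPM (log axis) for genes at 1 CPM or more (grey), with the counting error as a black running median and 10 named genes in red; right, CPM of those 10 genes in each library (log axis). Bcl6 stands alone above an SD of 1, with library 2 at 7.41 CPM and the other libraries at 50.98 to 75.4 CPM.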

How the data were processed

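Polyadenylated RNA of kidney cortex was made into strand-marked libraries (TruSeq Stranded mRNA), per the labels' protocols. The deposited values are raw counts per gene, whole numbers that the authors did not normalize. The submitters' processing notes name FastQC 0.10.1 for read quality, HTSeq 0.10.0 for counting, and the mouse build GRCm38, also called mm10. The aligner, annotation release and strand setting are not named by any source used, so antisense overlaps and near-identical copies cannot be resolved. Of 24 count columns, 8 match no sample and were not used.

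CPM was computed on library totals, and per-kb levels on merged exons of GENCODE M21, since genes differ in length. Gene lists, families and the rule for named genes were chosen with earlier results of these data known. The rule takes the 30 genes highest in CPM, the 3 highest per kb of each cell type list, the first and next of each family, members at 0 in all libraries, 21 always-named genes, and the 12 genes with a symbol that had the largest SD of log2(CPM + 0.5) among those at 10 CPM or more. Other genes named, such as ENSMUSG00000119584, Lars2 and Socs2, were chosen after their values were seen, as were further members of lists and families given for their roles. Some genes that the rule names are not reported here. The SD ranking was tested on simulated data. Shared sequence is the percentage of a gene's distinct 50-base stretches found in another gene's M21 transcripts on the same strand, so unannotated copies are missed. Promoters come from RefSeq (GRCm38.p6). Depth was 45854329 to 56957702 counts a library. No test between groups was run, because the design of a single group implies no comparison, and only Dixon's criterion for a library apart was applied. The smallest two-sided exact sign p of 4 libraries is 0.125. Alternatives were other scalings, length measures, filters, a pseudocount of 2 CPM, and leaving out each library. Python 3.11.15, pandas 2.3.3, R 4.3.3 and edgeR 4.0.16 (TMM factors and filterByExpr only) were used.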

Additional observations from a re-analysis of the deposited data

Results flagged for a closer look

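In each value below 1 library lay apart from the other 3, by a gap that, as a share of the range of the group, passed Dixon's 95% critical value for 4 samples. Of 256 values tested, for named genes with more than 40 counts in all, list sums and library measures, 20 passed, or 7.81%. Of the values tested, 10 were genes chosen for their large SD over the same libraries, and 3 of them passed (Cish, Cdk5rap1 and Prlr), so that part is partly fixed by the choice. Of the other 246 values 17 passed, or 6.91%. Chance flags about 1 in 20 groups, so a large share of these may be chance, and none is explained here.

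Library 1 had the largest total, 56957702 counts against 45854329 to 47280180 in the others. It was highest for the smooth muscle actin Acta2, at 28.8 CPM against 15.8 to 18, and for the endothelial gene Plvap, at 195 against 165 to 168 CPM. Cd74 stood at 330.1 CPM there against 236 to 252, and the T cell receptor chain Trac at 1.6 against 1.06 to 1.14 CPM.

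Library 2 was highest for Cish, at 29.7 against 10.7 to 13.5 CPM, and for Cdk5rap1, at 27.8 against 11.7 to 13.9 CPM. Its dendritic cell list summed to 7.07 CPM against 9.43 to 9.81.

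Library 3 was highest for Ddx3y (22.3 against 14 to 15.2 CPM), Slco1a1 (305 against 197 to 208 CPM) and Cldn10 (271 against 237 to 242 CPM). Its B cell list summed to 3.56 CPM against 2.27 to 2.48. It was lowest for the carrier Slc1a1 (262 against 302 to 308 CPM). Col1a1 was at 14.8 there against 18.5 to 19.2 CPM, and the cell cycle list at 4.44 against 5.77 to 5.87 CPM.

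Library 4 was highest for Slc27a2 (6228 against 5627 to 5664 CPM), Prlr (21.1 against 9.12 to 10.7 CPM) and Col3a1 (32.3 against 18.8 to 21 CPM). It was lowest for Rhbg (11.2 against 15.5 to 16.4 CPM). The list of all intercalated cells was at 686 CPM there against 766 to 772.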

How the results depend on the processing

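The number of genes at 1 CPM or more in all libraries was 12565 to 12623 under TMM, median-of-ratios and a total without mitochondrial genes, 14923 with at least 10 counts and 14805 under filterByExpr, against 12580. Leaving out each library gave 12638 to 12688. The top 10 genes held 13.3 to 13.6% of counts when a library was left out and 12.6% without mitochondrial genes, where 473 genes, not 423, held 50%. The 39 cell type sums stayed within 1 SD under TMM and median-of-ratios. The TMM factors were only 0.98 to 1.02, so TMM could hardly move a sum, and no stability follows from it. With a total without mitochondrial genes 1 of the 39 sums moved further. All 39 stayed within 1 SD when any library was left out. However, leaving out 1 library can never move a mean by 1 SD of its libraries. That result was fixed in advance, so no conclusion about the stability of the sums is drawn from it. SDs of the 12 variable genes stayed within 1.5 times under every scaling and with a pseudocount of 2 CPM. Leaving out 1 library reversed no family order. A ratio that is positive in all 4 libraries cannot reverse in this way, so only Slc8a1 to Slc8b1 could have done so. No conclusion about the stability of the other orders is drawn from it. The choice of length did reverse some orders. Of 45 ratios, 18 stayed within 1 SD with the longest transcript, 9 with median coding lengths and 3 without length correction. In the same order 24, 31 and 38 moved further but kept their sign, and another member led in 3, 8 and 7 families. The SDs of the ratios cover the libraries and not the choice of length. The log2 ratio reversed without length correction for Slc2a5 to Slc2a2 (-0.064), Slc17a1 to Slc17a3 (-0.23), Kcnj16 to Kcnj15 (-0.48) and Slc25a30 to Ucp2 (-0.35). With the longest transcript it reversed for Slc12a1 to Slc12a3 (-0.047), Slc8a1 to Slc8b1 (-0.11) and Slc25a30 to Ucp2 (-0.20). With median coding lengths it reversed for Slc12a1 to Slc12a3 (-0.40), Slc29a3 to Slc29a1 (-0.99), Slc39a1 to Slc39a5 (-0.31), Kcnj16 to Kcnj15 (-0.59) and Slc25a30 to Ucp2 (-1.79). These changes follow from the length used, since the counts are the same. Depth limits genes under 0.0527 to 0.0654 CPM. No paired analysis was possible because a single group was described.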
